A study of Mus musculus with 4 samples.

Results

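The 10 genes described here encode auxiliary proteins of the AMPA receptor: the TARPs Cacng2, Cacng3, Cacng4, Cacng5, Cacng7 and Cacng8, the Shisa proteins Shisa6 and Shisa9, and the cornichon homologues Cnih2 and Cnih3. They were taken by gene symbol from a table of 20032 genes, in which all 10 were found. Their RNA was measured in whole mouse olfactory bulbs at postnatal day 11 by RNA sequencing of 4 libraries, 2 from Sp8/Sp9-DCKO mice and 2 from littermate controls without Cre. DCKO mice were homozygous for floxed alleles of Sp8 and Sp9, a pair of zinc finger transcription factors, and carried the transgene Dlx5/6-CIE, in which an enhancer of Dlx5/6 drives Cre recombinase in forebrain precursors of GABAergic neurons. Which floxed alleles the controls carried is not given by the labels, and both genotypes were on a mixed background of C57BL/6J, 129S6 and CD1. The design asks how bulb gene expression differs once both factors are lost from the interneuron lineage.

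AMPA receptors carry most fast excitatory transmission in the brain, and each channel is built from pore subunits encoded by Gria1 to Gria4. The pore is surrounded by auxiliary proteins that bring it to the surface, hold it at the synapse and set how quickly it closes and desensitises. TARPs are the best known: type I TARPs end in a motif that binds scaffolds of the postsynaptic density, whereas type II TARPs differ in this tail and act more weakly on trafficking. Cornichon homologues help the receptor leave the endoplasmic reticulum and slow its closing, and Shisa proteins, also called CKAMPs, change its desensitisation. In the olfactory bulb, granule cells, the main GABAergic interneurons, receive glutamate through such receptors from the dendrites of mitral and tufted cells, the projection neurons.

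By library, the scaled fragment counts of the deposited table added up to 14899179 and 14632502 in DCKO replicates 1 and 2 and to 15033308 and 15400982 in control replicates 1 and 2. Both targeted genes were low in DCKO, with Sp8 at 1.68 and 2.03 FPKM against 32.0 and 26.7 FPKM in controls, and Sp9 at 0.0674 and 0.236 FPKM against 24.0 and 30.7 FPKM in controls. Xist stood at 77.0 FPKM in DCKO replicate 1 and at 0.0341 FPKM in DCKO replicate 2, against 0.0252 and 0.0355 FPKM in the controls. The Y-linked gene Ddx3y was at 0 and 14.2 FPKM in the same DCKO libraries, against 12.1 and 12.9 FPKM in the controls. By these genes only DCKO replicate 1 was female, so sex was not balanced between the genotypes. The DCKO libraries thus did not come from the same animal. For the controls the labels do not say this, and p-values measure the spread between these libraries, which may there be technical. Control replicate 1 stood apart in some genes of olfactory sensory neurons, whose axons enter the bulb. Omp, their marker protein, was at 31.5 and 20.3 FPKM in DCKO, against 98.4 FPKM in control replicate 1 and 20.1 FPKM in control replicate 2. For Gng13, of the same marker list, control replicate 2 was the library apart. It stood at 68.0 FPKM, against 144 FPKM in control replicate 1 and 146 and 119 FPKM in DCKO. Calls that were lost without control replicate 1 are given beside each gene.

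For 7 of the 10 genes, RefSeq (GRCm38.p6) gave 8 transcription starts, and the 250 bases before each start were searched on both strands for GGGCGG, the GC box bound by Sp family proteins. Counted by gene over any of its starts, the motif was present for 4 of the 7 genes. The same count gave 64.9% of the 9992 tested genes with an entry and 35.4% of all 27025 genes. Counted by window, 32.7% of all 32851 windows held it. Cnih2 and Cnih3 are shown as relatives whose RefSeq starts are the same in GENCODE. They were picked with their values known, so their match counts are not compared with their calls. Cacng7 is shown as the member of highest level. Capitals mark the motif or its reverse complement CCGCCC.
Cnih2 (chr19:5098522-5098771, - strand): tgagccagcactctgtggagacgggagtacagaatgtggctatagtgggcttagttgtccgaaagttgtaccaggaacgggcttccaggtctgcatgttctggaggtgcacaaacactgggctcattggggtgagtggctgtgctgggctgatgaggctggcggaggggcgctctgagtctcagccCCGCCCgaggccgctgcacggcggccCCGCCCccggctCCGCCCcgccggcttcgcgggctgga
Cnih3 (chr1:181352378-181352627, + strand): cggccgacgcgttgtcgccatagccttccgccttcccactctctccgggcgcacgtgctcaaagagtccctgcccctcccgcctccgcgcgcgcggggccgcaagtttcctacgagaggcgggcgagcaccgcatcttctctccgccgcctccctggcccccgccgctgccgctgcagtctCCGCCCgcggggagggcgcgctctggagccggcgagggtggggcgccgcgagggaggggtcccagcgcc
Cacng7 (chr7:3332575-3332824, + strand): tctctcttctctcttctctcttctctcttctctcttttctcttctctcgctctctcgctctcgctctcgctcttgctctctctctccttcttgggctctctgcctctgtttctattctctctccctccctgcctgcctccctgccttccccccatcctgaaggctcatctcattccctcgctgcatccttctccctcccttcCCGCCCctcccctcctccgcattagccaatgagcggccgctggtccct
Cnih2 held 3 matches in the last 64 bases before its start, Cnih3 and Cacng7 held 1 each, and the first of the Cacng5 starts held 2. No match was found before the listed starts of Cacng2, Cacng3 and Cacng8, but these lie 748, 1252 and 3359 bases downstream of the gene start in GENCODE M21, so the windows may not cover the promoters. A match of these letters does not show binding.

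In DCKO bulbs, 5 of the 10 auxiliary genes were lower, 1 was higher and 4 did not pass the test. Of the 4 type I TARPs, 3, Cacng8, Cacng2 and Cacng3, fell to between 0.545 and 0.634 of the control mean, and Cnih2 and Shisa9 to 0.739 and 0.771. Shisa6 rose to 1.52 times the control mean. The type II TARPs Cacng5 and Cacng7 and the genes Cacng4 and Cnih3 stood within 0.899 to 1.08 times the control mean. The test was limma on log2(FPKM + 1) over the 13434 genes that averaged 1 FPKM or more, which all 10 members did, and a call needs a Benjamini-Hochberg adjusted p below 0.05. Over all tested genes, 14.3% were lower by this rule and 13.0% were higher. The median log2 change was -0.26 for the 10 members and -0.02 for all tested genes. The groups did not overlap for 7 of the 10 members, which is close to the 71.5% of all tested genes for which they did not. In whole-bulb RNA, fewer cells of a type and less RNA per cell cannot be told apart.

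**Figure D1:**
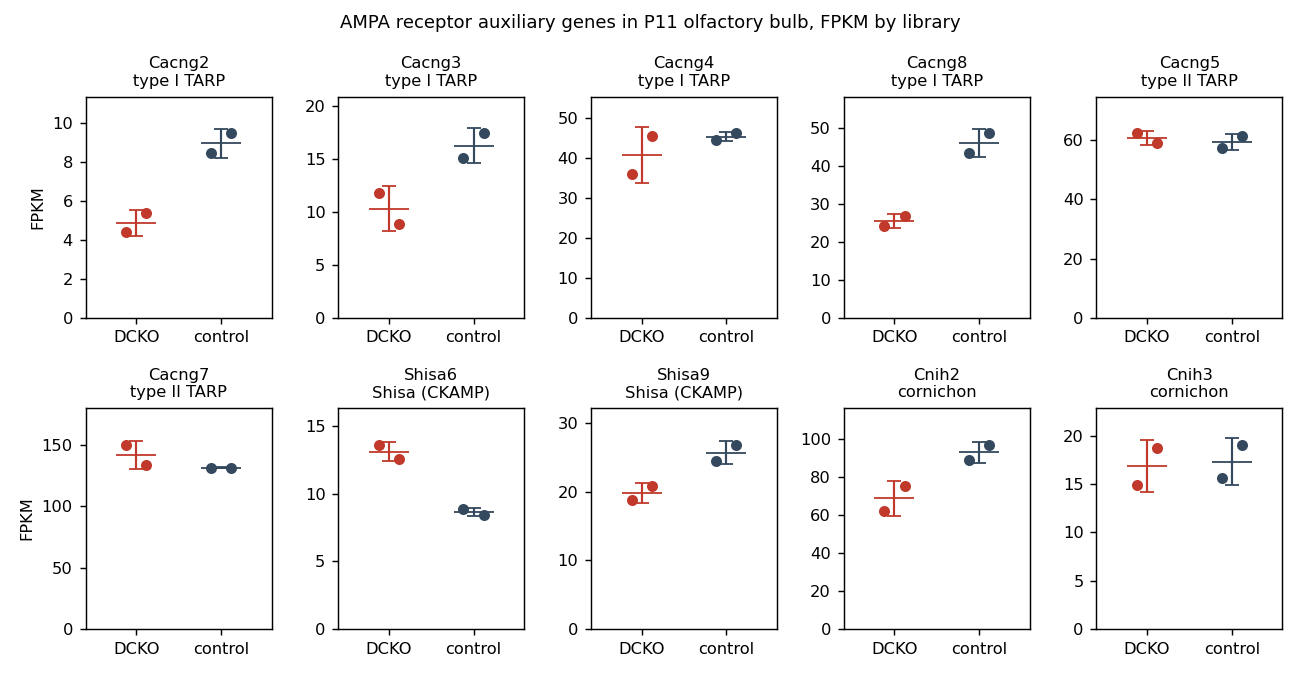
FPKM (vertical axes, each from 0) of the 10 auxiliary genes in the 2 DCKO libraries (left) and the 2 control libraries (right); points are libraries, horizontal lines means and error bars SD (n = 2 per group). Both DCKO points lie below both control points for Cacng2, Cacng3, Cacng8, Shisa9 and Cnih2 and above them for Shisa6.

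Among the type I TARPs, Cacng8 and Cacng2 had the lowest ratios of DCKO to control. Cacng8 (chromosome 7, 3390683 to 3415648, GRCm38, + strand, protein-coding) encodes the TARP best known from hippocampal neurons, and stood at 24.1 and 26.8 FPKM in DCKO against 43.3 and 48.5 FPKM in controls. Both DCKO libraries lay far below both controls, and the difference was larger than the spread within either genotype. On the log2 scale it fell by 0.83 (SE 0.09), with a 95% confidence interval of -1.06 to -0.59 (adjusted p = 0.00665), a 1.80-fold lower mean. Cacng2 (chromosome 15, 77991748 to 78120028, - strand), which encodes stargazin, the founding TARP, stood at 4.39 and 5.34 FPKM in DCKO against 8.42 and 9.44 FPKM in controls. It had the lowest level of the 10 members in DCKO, and its groups were clearly apart as well, with a log2 change of -0.76 (SE 0.12, 95% confidence interval -1.07 to -0.46, adjusted p = 0.0136). The calls of Cacng8 and Cacng2 held under all 12 alternatives, including each library left out.

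Cacng3 (chromosome 7, 122670492 to 122769393, + strand), a close relative of stargazin, stood at 11.8 and 8.82 FPKM in DCKO against 15.1 and 17.4 FPKM in controls. The groups did not overlap, but the DCKO libraries differed from each other nearly as much as the nearest libraries of the 2 genotypes did. Its log2 change was -0.62 (SE 0.15, adjusted p = 0.0404). Leaving out DCKO replicate 2 (adjusted p = 0.0722) or control replicate 2 (0.111) ended this call, and so did no filter (0.0831), quantile normalization (0.0579), no variance trend (0.0523) and a replicate block (0.0570). Cacng4 (chromosome 11, 107732357 to 107794557, - strand), a TARP known from developing brain and from glia, stood at 35.8 and 45.6 FPKM in DCKO against 44.5 and 46.1 FPKM in controls. Only DCKO replicate 1 was low, and DCKO replicate 2 lay between the controls. The log2 change of -0.16 (95% confidence interval -0.48 to 0.16, adjusted p = 0.368) did not pass, but without DCKO replicate 2 it was -0.33 and passed (adjusted p = 0.0419).

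Neither type II TARP passed the test. Cacng7 (chromosome 7, 3332955 to 3368221, + strand) had the highest FPKM of the 10 members, with 150.0 and 133.5 in DCKO against 131.5 and 130.98 in controls. Both DCKO libraries were above both controls, DCKO replicate 2 by a small margin, and the log2 change was 0.11 (95% confidence interval -0.10 to 0.32, adjusted p = 0.353). Cacng5 (chromosome 11, 107874605 to 107915055, - strand) stood at 62.4 and 59.0 FPKM in DCKO against 57.5 and 61.4 FPKM in controls. The groups overlapped, and the interval of the log2 change ran from -0.15 to 0.21 (adjusted p = 0.776). Neither type II gene had an unadjusted p below 0.05 in limma.

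The Shisa genes moved in opposite directions. Shisa6 (chromosome 11, 66211725 to 66525964, - strand) encodes a protein known to keep AMPA receptors from desensitising at hippocampal synapses, and it stood at 13.6 and 12.6 FPKM in DCKO against 8.84 and 8.44 FPKM in controls. Both DCKO libraries were higher, and Shisa6 was the only member to rise, with a log2 change of 0.55 (SE 0.08, 95% confidence interval 0.34 to 0.75, adjusted p = 0.0120). Leaving out control replicate 2 ended the call (adjusted p = 0.0558). Shisa9 (chromosome 16, 11984113 to 12270902, + strand) encodes CKAMP44, which slows the recovery of the receptor from desensitisation, and it stood at 18.8 and 20.8 FPKM in DCKO against 24.5 and 26.8 FPKM in controls. The DCKO libraries were lower, with a log2 change of -0.36 (SE 0.09, adjusted p = 0.0398). This call was lost without DCKO replicate 1 (adjusted p = 0.0977), control replicate 1 (0.0729) or control replicate 2 (0.188), with no filter (0.0669) and with no variance trend (0.0568). Within each library, Shisa6 stood at 0.725 and 0.605 of the Shisa9 FPKM in DCKO, against 0.361 and 0.314 in controls.

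Of the cornichon homologues, Cnih2 was lower and Cnih3 was not called. Cnih2 (chromosome 19, 5092868 to 5098521, - strand), the member with the next highest mean FPKM after Cacng7, stood at 62.3 and 75.1 FPKM in DCKO against 89.0 and 96.9 FPKM in controls. Its groups did not overlap, and it fell by 0.44 on the log2 scale (SE 0.11, adjusted p = 0.0450, 95% confidence interval -0.72 to -0.15). The call was lost without DCKO replicate 1 (adjusted p = 0.0808), control replicate 1 (0.0665) or control replicate 2 (0.150), with no filter (0.0845) and with no variance trend (0.0626). Cnih2 overlaps Yif1a on the opposite strand, which did not pass (log2 change 0.10), and reads of the pair cannot be told apart where the strand setting is not given. Cnih3 (chromosome 1, 181352628 to 181460641, + strand) stood at 14.9 and 18.7 FPKM in DCKO against 15.6 and 19.0 FPKM in controls. Its groups overlapped almost completely, and the log2 change of -0.04 had an interval of -0.42 to 0.34 (adjusted p = 0.857).

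**Figure D2:**
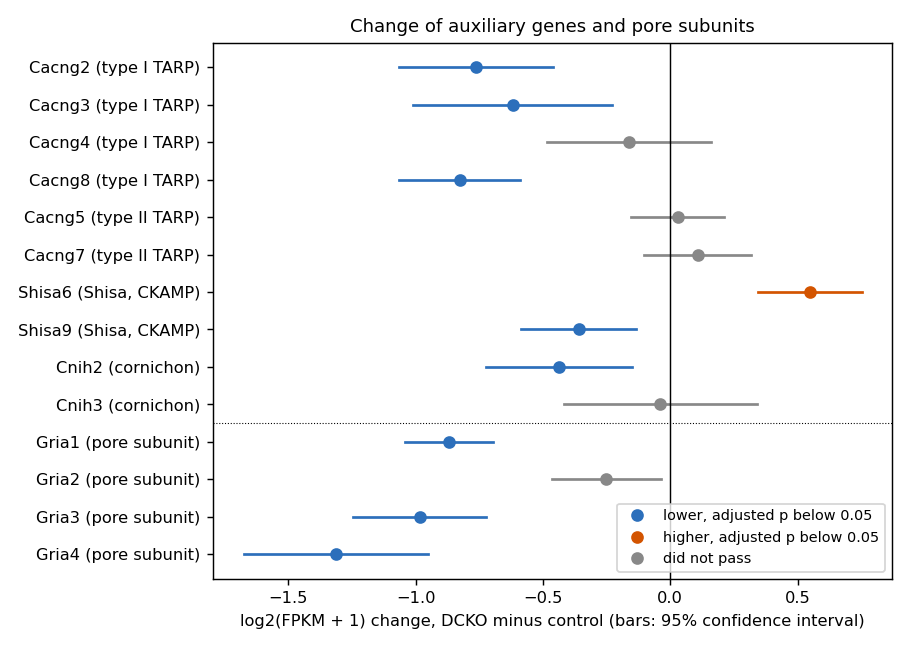
Log2 change (horizontal axis, log2(FPKM + 1), DCKO minus control) of the 10 auxiliary genes and, under the dotted line, the 4 pore subunits; points are limma estimates and bars 95% confidence intervals (2 libraries per group). Gria1, Gria3 and Gria4 and 5 auxiliary genes are lower, Shisa6 is higher, and the remaining estimates did not pass the test.

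The order of the members by FPKM was led by the same genes in both genotypes. In DCKO, Cacng7 came first with a mean of 142 FPKM, followed by Cnih2 (68.7 FPKM), Cacng5 (60.7 FPKM) and Cacng4 (40.7 FPKM), and in controls the order was Cacng7 (131 FPKM), Cnih2 (92.9 FPKM), Cacng5 (59.5 FPKM) and Cacng8 (45.9 FPKM). The ranges of Cnih2 and Cacng5 overlapped in DCKO but not in controls, and those of Cacng8 and Cacng4 overlapped in controls but not in DCKO. At the low end, Cacng2 was last in DCKO, at 4.86 FPKM, and Shisa6 was last in controls, at 8.64 FPKM, where its range overlapped that of Cacng2. These levels depend on the length by which the FPKM values were scaled. The scaled counts and FPKM together imply about 530 bases for Cacng7, 633 for Cacng8 and 709 for Cacng4. They imply 4427 for Cacng5, 4557 for Cacng2 and 10106 for Shisa6. These need not be lengths of gene models. The longest GENCODE transcript of Cacng7 is 2212 bases, with a coding length of 825, and that of Shisa6 is 7252 bases. Cacng7 thus rested on scaled counts of 1032 to 1203 fragments per library, and Cacng5, at a lower FPKM, on 3793 to 4150. The lowest scaled count of any member was 192, for Cacng3 in DCKO replicate 2.

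Set against the pore subunits, the summed auxiliary RNA stood higher in both DCKO libraries than in either control. Gria1 stood at 39.0 and 40.7 FPKM in DCKO against 71.6 and 75.8 FPKM in controls (log2 change -0.87, adjusted p = 0.00289), Gria3 (-0.98) and Gria4 (-1.31) fell as well, and Gria2 did not pass (-0.25, adjusted p = 0.0806), although it did without DCKO replicate 1 (adjusted p = 0.0460). The summed FPKM of the 4 pore genes was 143 ± 4.38 in DCKO and 219 ± 7.25 in controls (SD, n = 2 each). The summed FPKM of the 10 auxiliary genes was 402 ± 5.92 in DCKO and 452 ± 18.9 in controls. Auxiliary over pore FPKM came to 2.72 and 2.90 in the DCKO libraries, against 2.05 and 2.08 in the controls, with no overlap. The exact two-sided permutation test cannot give a p below 0.333 with 2 libraries against 2, so this ratio is given as a description. On scaled counts, which are not divided by length, the ratio was 0.643 and 0.706 in DCKO against 0.472 and 0.457 in controls. The DCKO mean was 1.36 times the control mean on FPKM and 1.45 times on scaled counts.

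By class, the ratio to the pore subunits was furthest apart for the type II TARPs, at 1.45 and 1.37 in DCKO against 0.884 and 0.859 in controls. Type I TARPs stood at 0.520 and 0.618 in DCKO against 0.521 and 0.542 in controls, so the groups overlapped. The Shisa pair stood at 0.221 and 0.238 in DCKO against 0.156 and 0.157 in controls, and the cornichon pair at 0.528 and 0.670 in DCKO against 0.489 and 0.517 in controls. Without Cacng7, the member of highest FPKM, the ratio over the other 9 genes was 1.69 and 1.95 in DCKO against 1.43 and 1.49 in controls. Within the TARPs, type I genes held 26.4% and 31.0% of the summed FPKM in DCKO, against 37.1% and 38.7% in controls. Cacng7 alone held 52.0% and 47.8% of it in DCKO, against 43.8% and 41.7% in controls. These class ratios and shares are on FPKM and were not computed on scaled counts, on which the order of the TARPs differed. On scaled counts, Cacng5 stood above Cacng7 in every library, for example at 4150 against 1203 in DCKO replicate 1. Among the pore subunits, Gria2, whose product keeps the channel impermeable to calcium, held 61.7% and 57.2% of the summed pore FPKM in DCKO, against 46.5% and 46.2% in controls.

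**Figure D3:**
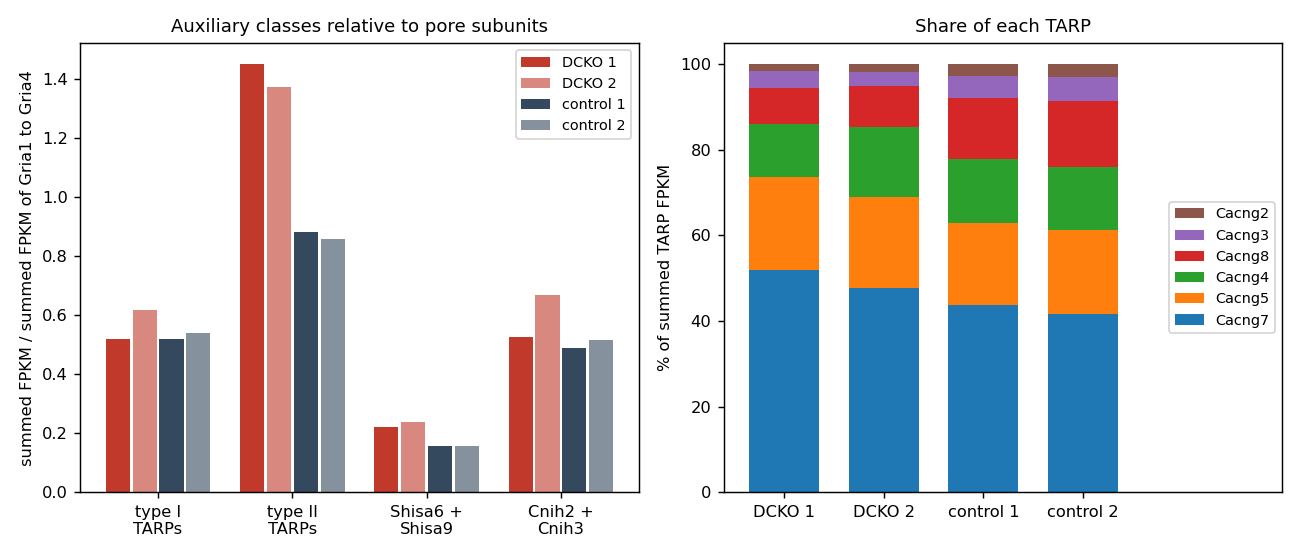
Left, summed FPKM of each auxiliary class divided by the summed FPKM of Gria1 to Gria4, in each of the 4 libraries; right, the percentage of summed TARP FPKM held by each TARP in each library. Type II TARPs stand at 1.45 and 1.37 in DCKO against 0.884 and 0.859 in controls. Cacng7 takes the largest share of FPKM in every library, whereas on scaled counts Cacng5 is the highest TARP.

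Of the members that lie side by side in the genome, Cacng8 fell and Cacng7 did not pass, and neither Cacng4 nor Cacng5 passed. On chromosome 7, Cacng7 and Cacng8 are 22461 bases apart on the + strand, and Cacng6 follows Cacng8 after 8546 bases. Cacng8 stood at 0.160 and 0.201 of the Cacng7 FPKM in DCKO, against 0.330 and 0.370 in controls. Cacng6, a relative known as a calcium channel subunit of muscle, stood at 4.53 and 3.69 FPKM in DCKO against 2.54 and 1.66 FPKM in controls (log2 change 0.73, adjusted p = 0.0425), with scaled counts of only 32.2 and 26.3 in DCKO and 18.1 and 11.6 in controls. Its call was lost without any of the libraries except control replicate 1 (highest adjusted p = 0.141), on scaled counts (0.122) and with no filter (0.0880). On chromosome 11, Cacng5 lies between Cacng4, 80047 bases away, and Prkca, 18331 bases away. Prkca, which encodes a protein kinase C, fell to 10.9 and 10.9 FPKM in DCKO, against 21.6 and 23.3 FPKM in controls (log2 change -0.98, adjusted p = 0.00263), beside the 2 TARPs that did not pass.

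Other known genes of the AMPA receptor complex included decreases below a log2 change of -1, a size that none of the 10 members reached. Over 5 lists of pore subunits, further auxiliary proteins, assembly factors, anchoring partners and clustering proteins, 35 of 36 genes were measured. Of these, 18 fell, 7 rose and 10 did not pass, with a median log2 change of -0.37. Over all tested genes, 14.3% fell and 13.0% rose, which is the background for each of these lists. All 11 measured genes among further auxiliary and associated proteins were called, 7 lower and 4 higher (Shisa8 was not used here). Lrrtm4, a synapse organiser, stood at 2.44 and 2.66 FPKM in DCKO against 9.76 and 11.1 FPKM in controls (log2 change -1.69), Prrt1, also called SynDIG4, at 14.9 and 13.5 FPKM in DCKO against 44.1 and 48.4 FPKM in controls (-1.64), and Syndig1 at 1.36 and 1.67 FPKM in DCKO against 6.50 and 6.87 FPKM in controls (-1.61). Shisa7, the CKAMP59 gene and a relative of Shisa6 and Shisa9, also fell, at 13.1 and 14.8 FPKM in DCKO against 33.2 and 35.5 FPKM in controls (-1.24, adjusted p = 0.00241). The 3 measured CKAMP genes thus had log2 changes of 0.55, -0.36 and -1.24.

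Of the 5 assembly factors of the endoplasmic reticulum, Frrs1l fell (log2 change -0.48, adjusted p = 0.0226) and 4 did not pass, with the Frrs1l call ended by leaving out control replicate 2 (adjusted p = 0.0896). Of 12 anchoring and trafficking partners, 7 fell, 2 rose and 3 did not pass. Grip1, a PDZ scaffold that binds the tails of the pore subunits, stood at 3.57 and 4.39 FPKM in DCKO against 18.7 and 16.6 FPKM in controls (log2 change -1.91), and its relative Grip2 fell as well (-1.38). Dlg4, the scaffold to which type I TARPs bind, stood at 65.4 and 66.1 FPKM in DCKO against 138.1 and 146.8 FPKM in controls (-1.10, adjusted p = 0.00168), and the kinase anchor Akap5 fell (-1.01). Of 3 pentraxins, which cluster receptors from outside the cell, Nptx1 rose (0.89, adjusted p = 0.00745) and Nptx2 and Nptxr did not pass. Of the kainate receptor auxiliary genes, Neto1 fell (-1.73, adjusted p = 0.00272), and Neto2 did not pass (0.26, adjusted p = 0.0589).

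**Figure D4:**
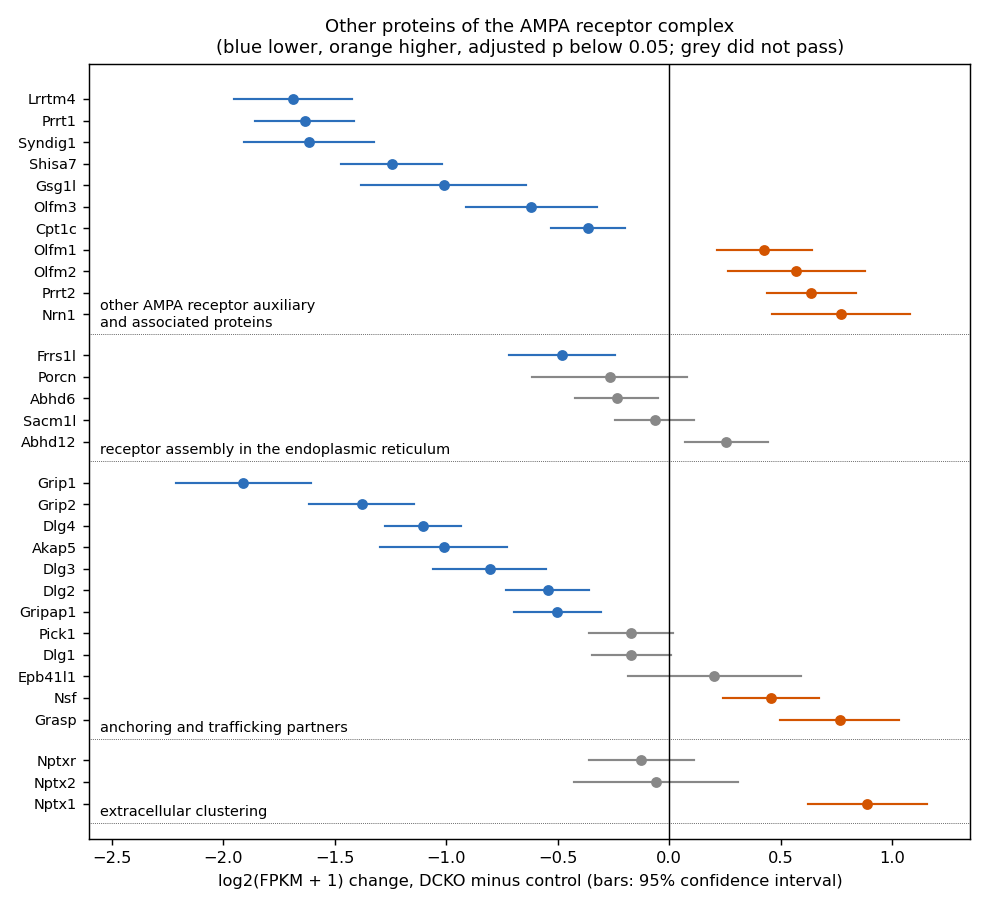
Log2 change (horizontal axis, log2(FPKM + 1), DCKO minus control) of 31 other genes of the AMPA receptor complex in 4 lists; points are limma estimates and bars 95% confidence intervals (2 libraries per group). Grip1 (-1.91) and Lrrtm4 (-1.69) lie furthest to the left and Nptx1 (0.89) furthest to the right.

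Markers of several cell types moved with genotype in the same libraries. Of the granule cell and interneuron markers, 10 of 10 fell, with a summed level of 120.1 to 178 FPKM in DCKO against 969 to 988 FPKM in controls. Of the mitral and tufted cell markers, 7 of 7 tested rose, with a sum of 1443 to 1622 FPKM in DCKO against 744 to 811 FPKM in controls. Astrocyte markers rose for 6 of 8, at 967 to 1032 FPKM in DCKO against 545 to 546 FPKM in controls, and microglia markers for 4 of 6, at 101 to 108 FPKM in DCKO against 71.7 to 71.8 FPKM in controls. Of 6 markers of oligodendrocyte precursors, none was called in limma and none had an unadjusted p below 0.05, with sums of 159 to 206 FPKM in DCKO against 147 to 169 FPKM in controls. Immature neuron markers were mixed, with 3 of 6 lower and 2 higher, at 538 to 574 FPKM in DCKO against 456 to 471 FPKM in controls. Much of this sum was Stmn2, at 325 and 320 FPKM in DCKO against 180 and 186 FPKM in controls. Dcx went the other way, at 15.3 and 24.0 FPKM in DCKO against 86.1 and 84.9 FPKM in controls. Markers of cortical projection neurons were low but rose for 2 of 4 tested, at 24.9 to 28.1 FPKM in DCKO against 9.92 to 13.9 FPKM in controls. Of 5 myelinating oligodendrocyte markers and 5 olfactory sensory neuron markers, none was called in limma and 1 of each list had an unadjusted p below 0.05. Their sums were 491 to 905 FPKM and 164 to 201 FPKM in DCKO, against 516 to 705 FPKM and 113 to 294 FPKM in controls. Ensheathing cell markers rose for 3 of 5, at 993 to 1001 FPKM in DCKO against 608 to 661 FPKM in controls. No marker of these lists was listed at 0 in any library. Their part in the changes of the auxiliary genes was not tested.

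**Figure D5:**
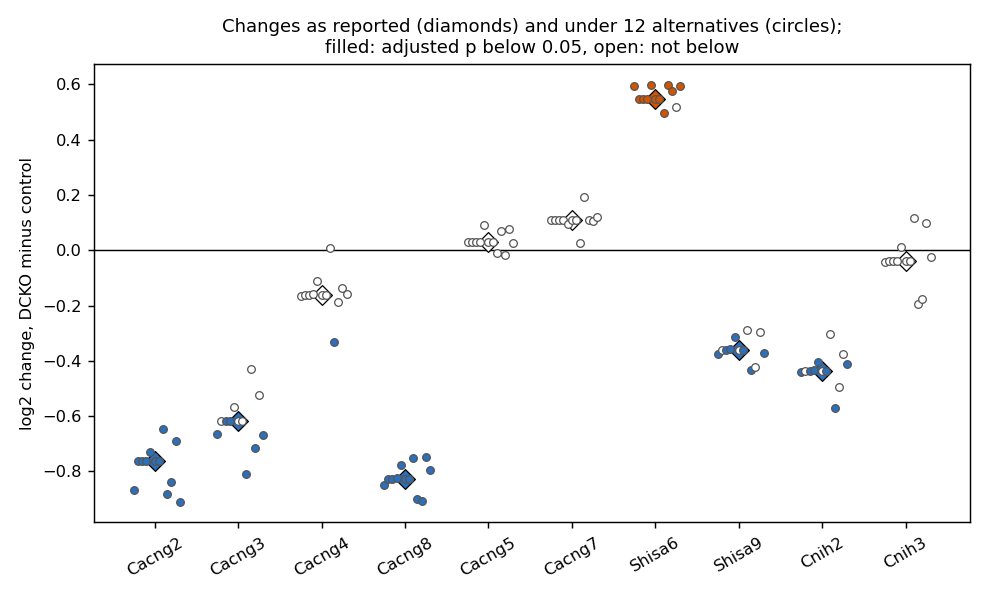
Log2 change of each auxiliary gene (vertical axis, DCKO minus control) as reported (diamonds) and under 12 alternatives of processing or with 1 library left out (circles); filled symbols have an adjusted p below 0.05 and open symbols do not. Cacng2 and Cacng8 stay filled throughout, whereas Cacng3, Shisa6, Shisa9 and Cnih2 hold open circles.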

How the data were processed

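Total RNA of whole olfactory bulbs was sequenced in 4 libraries. Per the submitters' processing notes, the authors used TopHat (version not given) and Cufflinks 2.1.1 with GRCm38.p4. Their gene annotation and strand setting were not given in the sources used here. FPKM values, as deposited by the authors and per the file headers, scale fragments by transcript length and mapped fragments. The deposited columns headed count are a signal: in each library, 98.4% to 98.8% of values below 200 fall within 0.05 of a whole multiple of 1 constant, as scaled fragment counts would. They are not whole numbers, so no count model was run.

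Log2(FPKM + 1) was fitted with limma 3.58.1 in R 4.3.3 with an intensity trend, for the 13434 genes averaging 1 FPKM or more, two-sided, with Benjamini-Hochberg adjustment over all of them. The fit was tested on data simulated from its own fitted variances, which checks the procedure but not how well these libraries meet its assumptions. A fold change on this scale understates the change of low genes. Sums and ratios use FPKM unless scaled counts are named. Implied lengths divide each scaled count by its FPKM and by the summed scaled counts of the library, and need not equal annotated lengths. Coordinates are from GENCODE M21 (GRCm38) and promoter windows from RefSeq. Cnih1 and Epb41l1 were found under older symbols. A planned comparison of protein sequences was not made, and 1 planned gene is not reported here.

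Columns were mapped by the codes in the sample descriptions, with 0 such columns unmapped. The genes named are all 10 members whatever their values, Gria1 to Gria4, Sp8 and Sp9, genome neighbours, up to 2 genes of each marker list, and of each other list up to 4 called genes of largest change. Nptx2, Nptxr, Neto2, Xist, Ddx3y, Cnih1, Cnih4, Nrn1, Prrt2 and Olfm1 to Olfm3 fall outside this rule and were chosen after their values were seen. The members and lists were chosen with earlier results of these data known. Alternatives covered the pseudocount (0.1), the filter, 2 scalings, a replicate block, the scaled counts, the variance trend and leaving out each library.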

Additional observations from a re-analysis of the deposited data

How the results depend on the processing

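With no filter on low values and with no variance trend, 2 members were called lower in place of 5, and with 1 library left out 2 to 5 were called lower and 0 to 1 higher, in limma fits where a lone library was assumed to vary like the other genotype's pair. The single higher call, Shisa6, kept an unadjusted p below 0.05 in each of these fits. With no filter, 1434 of 19592 tested genes were called lower and 1188 higher. With no variance trend, 1749 of 13434 were called lower and 1686 higher, against 1926 and 1747 in the main fit. Over all tested genes, 1030 to 1875 were called lower and 806 to 1384 higher with 1 library left out, against 1926 and 1747 with all 4, and of the other complex genes 4 to 8 were called higher, against 7. Small changes that did not pass turned sign: with 1 library left out, log2 changes ran from -0.33 to 0.0090 for Cacng4, -0.017 to 0.076 for Cacng5 and -0.19 to 0.12 for Cnih3, and with quantile normalization that of Cnih3 was 0.013. The difference of the auxiliary to pore ratio, 0.748 (DCKO minus control), was 0.210 on scaled counts, 0.359 without Cacng7 and 0.658 to 0.838 with 1 library left out. The first 2 of these rest on ratios with lower levels in controls (0.464 and 1.46, against 2.06), and the DCKO mean was 1.45 and 1.25 times the control mean there, against 1.36 times with all 10 genes on FPKM. Deviations from the group means were not correlated between libraries of the same replicate number (-0.021). With 2 libraries per genotype, both replicate numbers give this same value by construction, so it cannot decide whether the libraries were paired. With the replicate block, 4 members were called lower and 1 higher, Cacng3 being lost (adjusted p = 0.0570). Fits by count models were not run, since the deposited columns hold no whole counts. With 2 libraries per genotype, intervals are wide: for Cnih3, changes between -0.42 and 0.34 could not be told apart from none.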

Other observations

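Relatives of the auxiliary proteins that are not known to bind AMPA receptors were measured in the same libraries. Of 8 such genes, 7 were tested, of which 3 rose and none fell in limma. Over all tested genes, 13.0% rose and 14.3% fell. An unadjusted p below 0.05 was reached by 5 of the 7, but the share of all tested genes that reached it was not counted. Shisa3, known as an antagonist of Wnt and FGF signalling, stood at 97.1 and 104.0 FPKM in DCKO against 34.0 and 33.5 FPKM in controls (log2 change 1.55, adjusted p = 0.000893), a larger change than that of any of the 10 auxiliary genes. Shisa5, known from cell death after DNA damage, stood at 30.1 and 27.4 FPKM in DCKO against 17.0 and 15.2 FPKM in controls (log2 change 0.80, adjusted p = 0.00672). Cnih1 and Cnih4, cornichon homologues found in most cell types, stood at 37.2 and 39.1 FPKM and at 10.1 and 10.5 FPKM in DCKO, against 37.6 and 39.2 FPKM and 9.94 and 10.2 FPKM in controls. Their log2 changes of -0.01 (95% confidence interval -0.18 to 0.16) and 0.03 (-0.15 to 0.22) did not pass.

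Among the further associated proteins, 4 genes rose while 7 fell. Nrn1, the activity-regulated gene neuritin, stood at 61.7 and 76.2 FPKM in DCKO against 38.1 and 41.6 FPKM in controls (log2 change 0.77, adjusted p = 0.0140). Prrt2, a presynaptic protein, stood at 34.0 and 31.6 FPKM in DCKO against 20.0 and 21.5 FPKM in controls (0.64, adjusted p = 0.00792). The secreted noelins were split, with Olfm1 (0.43) and Olfm2 (0.57) higher and Olfm3 (-0.62) lower. The Olfm1 call was lost without 3 of the 4 libraries (adjusted p = 0.0593 to 0.174), with a replicate block (0.0570) and with no filter (0.0578). The Olfm2 call was lost without DCKO replicate 2 (adjusted p = 0.0755) or control replicate 1 (0.0765) and with no filter (0.0599).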
